A study of Homo sapiens with 6 samples.

Results

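Transcripts of 5 signalling genes differed between penfluridol and DMSO libraries of Ishikawa cells, an endometrial adenocarcinoma line. IL32, CXCL8, TNF and LIF were higher with penfluridol and CXCR4 was lower. The calls of IL32 and CXCR4 held in 6 of 6 fits that left out a library, those of TNF and CXCL8 in 4 and that of LIF in 1. CXCL1, CXCL2, CCL2, IL6 and CSF1 had a mean below 1 TPM and were not tested. The set of 10 genes holds secreted cytokines and chemokines and 1 chemokine receptor, and it was drawn from 60670 genes. Its names were selected on results of this same comparison, so all of its fold changes and p-values are a description and no independent support. Each symbol had 1 row in the deposited table.

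The groups were 3 libraries of cells given the solvent DMSO and 3 libraries of cells given 5 µM penfluridol, an antipsychotic that blocks dopamine receptors. The line carries no further genetic change in the labels, the labels give no treatment length and do not say whether the 3 libraries of a group came from separate cultures. The p-values therefore measure the spread between libraries, which may be technical. Values are TPM, transcript abundances scaled by transcript length and to a common total per library, and the depth behind them is unknown.

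Cytokines such as TNF, CXCL8 and IL6 are secreted signals that recruit or instruct other cells. Many of their genes are switched on through NF-κB, a family of transcription factors held in the cytoplasm by IκB proteins, and many of their messenger RNAs are short-lived because AU-rich stretches in the 3′ UTR bring in decay factors such as ZFP36 (tristetraprolin). CXCR4 is the receptor for CXCL12 and guides cell migration. In the endometrium, LIF is known for its part in embryo implantation.

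The promoter windows of 4 of the genes are shown because they carry matches to the κB motif GGNNTTTCC, the letters that NF-κB dimers are known to bind. Each window runs from 250 bases before to 50 bases after the annotated start, 5′ to 3′ on the gene's strand (RefSeq, GRCh38.p14), and the capitals mark every match to this motif and, in CXCL8, also to the AP-1 motif TGANTCA. The windows are chr4:73740319-73740618 (plus strand) for CXCL8, chr4:73869143-73869442 (plus strand) for CXCL1, chr4:74099146-74099445 (minus strand) for CXCL2 and chr16:3065153-3065452 (plus strand) for IL32.
CXCL8: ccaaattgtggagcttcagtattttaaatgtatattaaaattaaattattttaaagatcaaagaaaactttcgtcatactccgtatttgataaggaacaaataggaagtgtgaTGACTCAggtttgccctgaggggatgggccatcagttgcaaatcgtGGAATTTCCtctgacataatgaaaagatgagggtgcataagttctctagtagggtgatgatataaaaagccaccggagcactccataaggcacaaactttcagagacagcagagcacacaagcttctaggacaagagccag
CXCL1: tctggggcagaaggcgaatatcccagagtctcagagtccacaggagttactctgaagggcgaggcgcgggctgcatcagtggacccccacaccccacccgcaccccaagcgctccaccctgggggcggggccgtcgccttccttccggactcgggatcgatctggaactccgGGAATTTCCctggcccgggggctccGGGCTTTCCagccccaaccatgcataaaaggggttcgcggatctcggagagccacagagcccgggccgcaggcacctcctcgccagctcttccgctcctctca
CXCL2: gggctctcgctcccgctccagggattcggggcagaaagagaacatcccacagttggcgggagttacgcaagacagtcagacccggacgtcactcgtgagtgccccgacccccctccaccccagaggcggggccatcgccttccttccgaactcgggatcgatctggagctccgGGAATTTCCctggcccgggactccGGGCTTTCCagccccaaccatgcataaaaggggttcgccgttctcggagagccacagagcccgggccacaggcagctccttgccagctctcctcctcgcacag
IL32: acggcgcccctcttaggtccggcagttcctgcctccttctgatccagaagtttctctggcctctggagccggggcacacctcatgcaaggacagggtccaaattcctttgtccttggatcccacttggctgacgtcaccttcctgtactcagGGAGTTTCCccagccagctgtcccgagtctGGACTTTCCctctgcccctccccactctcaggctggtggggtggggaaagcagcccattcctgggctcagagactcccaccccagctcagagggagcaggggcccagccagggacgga

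CXCL8 had the match GGAATTTCC at 91 bases and the AP-1 match TGACTCA at 137 bases before the start. CXCL1 and CXCL2 shared the matches GGAATTTCC, at 78 and 77 bases before their starts, and GGGCTTTCC, at 53 bases in both. The IL32 window shown held GGAGTTTCC at 98 bases and GGACTTTCC at 68 bases before its start. The other IL32 window, chr16:3065534-3065833, had no match, and values per gene do not say which start was used. The table held 10 windows for 7 of the 10 genes (CXCR4 has 3 and IL32 has 2), and LIF, CCL2 and CSF1 were not matched.

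The κB motif was searched on both strands and was found in 6 of the 10 windows, against 6.26% of all 35116 promoter windows of that length. The other 2 matches were in IL6, 72 bases before the start, and in 1 CXCR4 window, 230 bases before the start on the opposite strand. TNF had no match in its window, which says only that these letters are not in these 300 bases. TGANTCA was in 1 of the 10 windows against 7.71% of all, and TGATGNAA, the composite C/EBP-ATF motif, was in 0 of the 10 against 3.62% of all. None of the matches in these windows overlapped another. A match is a description of letters and not a binding site, and it was present both in genes that rose and in genes that were below 1 TPM.

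**Figure D1:**
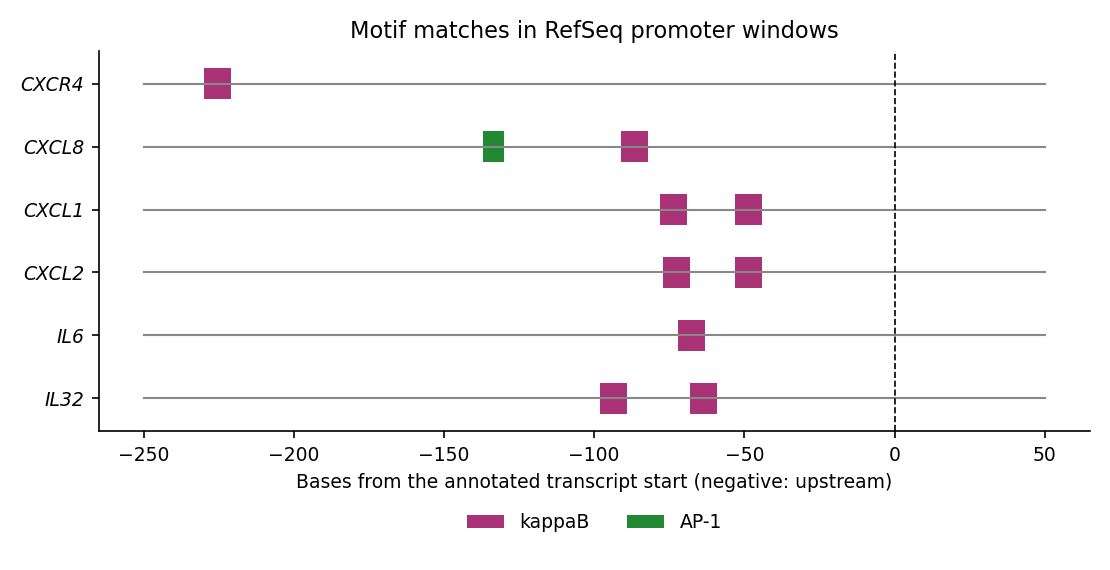
Positions of motif matches in the RefSeq promoter windows that hold at least 1 match, in bases from the annotated start (dashed line); boxes are κB matches (GGNNTTTCC) or the AP-1 match (TGANTCA). The κB matches of CXCL8, CXCL1, CXCL2, IL6 and IL32 lie 53 to 98 bases before the start, and that of CXCR4 lies 230 bases before it.

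The second set of sequences is shown because it holds the AU-rich nonamer TTATTTATT, the core that ZFP36 family proteins are known to bind in 3′ UTRs. It was chosen after the expression values were seen. Each is a 30-base site of the longest annotated 3′ UTR (GENCODE release 29, GRCh38) with the nonamers in capitals: chr6:31577998-31578027 (plus strand) for TNF, chr4:74097584-74097613 (minus) for CXCL2, chr4:73870675-73870704 (plus) for CXCL1, chr22:30240958-30240987 (minus) for LIF and chr4:73742663-73742692 (plus) for CXCL8.
TNF: gaTTATTTATTATTTATTTATTATTTATTt
CXCL2: tctatTTATTTATTTATTTATTTATTtgtt
CXCL1: gtcttctatTTATTTATTTATTcattagtt
LIF: tctccgggcccTTATTTATTatttaaacat
CXCL8: tatgtaaagtaTTATTTATTtgaatctaca

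Over the whole 3′ UTR, TNF and CXCL2 had 5 nonamers each, CXCL1 had 3, LIF had 2 and CXCL8 had 1, overlapping copies included. The nonamer was therefore present in 5 of the 10 genes, against 7.81% of the 10495 tested protein-coding genes with an annotated 3′ UTR. The median 3′ UTR length of the 10 genes was 713.5 bases against 1190 bases over those tested genes, with LIF (3204), CSF1 (2154) and CXCL8 (1252) above the latter. IL32, CXCR4, IL6, CCL2 and CSF1 had none. The share of 7.81% covers tested genes only, and CXCL1 and CXCL2 were not tested. Of the 5 genes tested for expression, 3 carried the nonamer and rose (TNF, CXCL8 and LIF), while IL32 rose without it. Those 3 had a DMSO mean below 1 TPM and passed the filter through the penfluridol libraries, so they could hardly do other than rise. No link between the nonamer and a rise is read from this.

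The libraries were compared with each other, with earlier results of these data already known. On log2(TPM + 1) over the tested genes, DMSO 1 correlated at 0.960 with DMSO 2 and at 0.956 with DMSO 3. DMSO 2 and DMSO 3 were the least alike of the group, at 0.930. With the penfluridol libraries, DMSO 3 correlated at 0.945 to 0.955, DMSO 1 at 0.923 to 0.930 and DMSO 2 at 0.895 to 0.917. DMSO 3 was thus about as close to the penfluridol libraries as to its own group. Results are also given without it, and fits were run without each other library. Markers matched the line's epithelial label, with all 10 epithelial markers above a mean of 1 TPM and summed levels of 4246 to 5340 TPM in DMSO and 3113 to 3543 TPM in penfluridol. Most of that sum was KRT8, KRT18 and KRT19, with means of 1988, 1492 and 686 TPM in DMSO and 1109, 1045 and 489 TPM in penfluridol. Of the 10, limma called 2 higher (SOX17 and CLDN3) and 1 lower (KRT8), against 9.75% and 3.48% of all tested genes. Their median log2 fold change was 0.034. Of 12 leukocyte markers, 10 had a mean below 1 TPM, 6 were listed at 0 in all libraries (CD3E, CD2, MS4A1, ITGAM, AIF1 and TYROBP) and PTPRC reached at most 0.05 TPM. Their sum was 1.91 to 3.57 TPM in DMSO and 5.72 to 6.65 TPM in penfluridol, mostly through CD68, a lysosomal glycoprotein, which went from 0.34 to 0.92 TPM up to 4.39 to 4.80 TPM. The 7 stromal markers summed to 1.87 to 5.04 TPM, with DCN, LUM and PDGFRB at 0, and the 5 endothelial markers to 0.26 to 0.95 TPM. The part of these markers in the results was not tested.

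IL32 (ENSG00000008517, chr16:3065297-3082192, plus strand, GRCh38 as are all gene positions here) encodes a secreted inflammatory cytokine first described in activated lymphocytes. Its level was 0.67, 1.45 and 1.06 TPM in DMSO 1, 2 and 3 and 19.5, 19.8 and 16.4 TPM in penfluridol 1, 2 and 3. All 3 penfluridol libraries were far above all DMSO libraries, and the ratio of group means was 17.5. The log2 fold change, on the log2(TPM + 1) scale that understates changes of low genes, was 3.26 ± 0.21 (SE, n = 3 per group; limma adjusted p = 0.000669), and 7 of the 12201 tested genes had a larger increase. In bulk RNA, more cells with a transcript and more transcript per cell cannot be told apart, for this and all later values. Leaving out each library in turn kept the call in 6 of 6 fits.

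TNF (ENSG00000232810, chr6:31575567-31578336, plus strand) encodes the founding ligand of the tumour necrosis factor family, made as a membrane protein and shed. DMSO 1, 2 and 3 had 0.26, 0.35 and 0.28 TPM, and penfluridol 1, 2 and 3 had 2.59, 2.24 and 2.03 TPM. The groups did not overlap, and the whole DMSO group was below 1 TPM. The log2 fold change was 1.34 ± 0.22 (SE; limma adjusted p = 0.0109), with 198 tested genes rising more, and the ratio of means was 7.71. The call was lost without DMSO 1 (adjusted p = 0.0538 by limma) and without penfluridol 2 (0.0597).

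CXCL8 (ENSG00000169429, chr4:73740506-73743716, plus strand) encodes interleukin 8, a chemokine that attracts neutrophils. It measured 1.26, 1.10 and 0.34 TPM in the DMSO libraries and 5.32, 4.27 and 5.98 TPM in the penfluridol libraries. DMSO 3 was the lowest library, and every penfluridol library was above every DMSO library. The log2 fold change was 1.73 ± 0.27 (SE; limma adjusted p = 0.0104), and 1.50 without DMSO 3. The call was lost without penfluridol 1 (limma adjusted p = 0.0522) and without penfluridol 2 (0.0545). Its transcripts had a low GC content of 37.6% against a median of 51.8% over tested genes, and a correction for GC content and length moved its fold change to 2.48 (adjusted p = 0.0014).

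LIF (ENSG00000128342, chr22:30240447-30246851, minus strand) encodes leukaemia inhibitory factor, a cytokine of the interleukin 6 family that signals through STAT3. Its level was 1.15, 0.98 and 0.79 TPM in the DMSO libraries and 2.34, 2.58 and 3.22 TPM in the penfluridol libraries. The groups did not overlap, but DMSO 2 and 3 lay below 1 TPM and the log2 fold change, 0.91 ± 0.22 (SE; limma adjusted p = 0.0384), was passed by 657 genes. Its call was the least stable of the 5. It held without DMSO 3 (limma adjusted p = 0.0314) and was lost without DMSO 1 (0.107), DMSO 2 (0.0787), penfluridol 1 (0.0840), penfluridol 2 (0.136) or penfluridol 3 (0.0891), and also with no filter on low values (0.107).

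CXCR4 (ENSG00000121966, chr2:136114349-136118165, minus strand) was the gene of the set that fell. DMSO 1, 2 and 3 had 58.0, 58.4 and 38.1 TPM, against 9.27, 13.2 and 14.9 TPM in penfluridol 1, 2 and 3. DMSO 3 was the lowest of its group and still above every penfluridol library. The ratio of the DMSO mean to the penfluridol mean was 4.13, the log2 fold change was −1.96 ± 0.24 (SE; limma adjusted p = 0.00462), and 63 tested genes had a larger decrease. The call held in 6 of 6 fits that left out a library, at −2.16 without DMSO 3, and GC and length correction moved the value to −1.63.

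**Figure D2:**
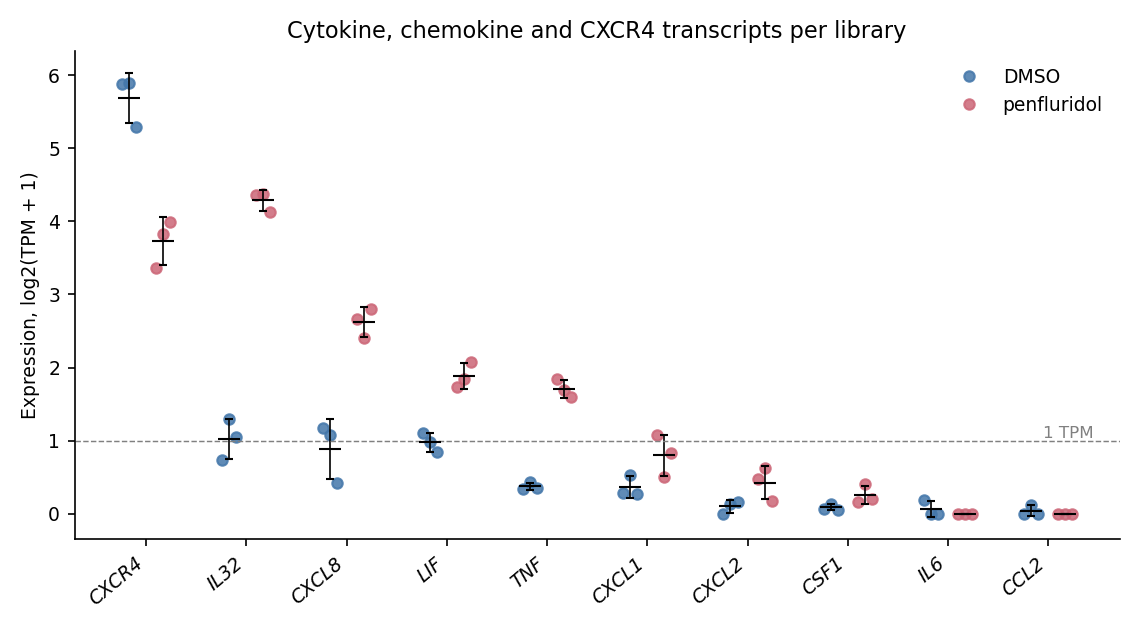
Expression of the 10 genes as log2(TPM + 1) in each library (points; DMSO and penfluridol, 3 libraries each), with the mean and SD of each group (black) and 1 TPM as a dashed line. IL32 rises from a DMSO mean of 1.06 TPM to a penfluridol mean of 18.6 TPM and CXCR4 falls from 51.5 to 12.5 TPM, while CXCL1, CXCL2, CCL2, IL6 and CSF1 stay near or below the line.

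Per transcript length, the order of levels changed between the groups. In DMSO, CXCR4 (51.5 ± 11.6 TPM, SD, n = 3) stood above IL32 (1.06 ± 0.39), LIF (0.973 ± 0.18) and CXCL8 (0.90 ± 0.492), and these last 3 did not differ beyond their spread. Below them, TNF (0.297 ± 0.0473) and CXCL1 (0.29 ± 0.139) were alike within their spread. In penfluridol, IL32 (18.6 ± 1.87 TPM) came first in every library, ahead of CXCR4 (12.5 ± 2.90) and CXCL8 (5.19 ± 0.862). LIF (2.71 ± 0.455) and TNF (2.29 ± 0.283) followed within each other's spread, and CXCL1 (0.763 ± 0.340) lay below 1 TPM.

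The other chemokines and cytokines of the set were below 1 TPM on average. CXCL1 (chr4:73869393-73871242, plus strand), a neutrophil chemokine, was at 0.22, 0.45 and 0.20 TPM in DMSO and 1.10, 0.42 and 0.77 TPM in penfluridol, and the groups overlapped. CXCL2 (chr4:74097035-74099293, minus strand), its close relative, was at 0, 0.10 and 0.12 TPM against 0.39, 0.54 and 0.13 TPM, without overlap but with penfluridol 3 next to DMSO 3. CXCL1, CXCL2 and CXCL3 are near copies of each other, so reads may be split between them and each value is uncertain.

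CSF1 (chr1:109910242-109930992, plus strand), the macrophage growth factor, was at 0.05, 0.10 and 0.04 TPM in DMSO and 0.12, 0.32 and 0.15 TPM in penfluridol, without overlap. CCL2 (chr17:34255218-34257203, plus strand), a monocyte chemokine, was listed at 0.09 TPM in DMSO 2 and at 0 in the other 5 libraries. IL6 (chr7:22725884-22732002, plus strand) was listed at 0.14 TPM in DMSO 1 and at 0 in the other 5 libraries. When limma was run with no filter, where 3.02% of 26597 genes were called higher and 0.729% lower, 0 of these 5 genes were called (adjusted p = 0.234 to 0.562), and CXCL2 alone had an unadjusted p under 0.05, a count of 1 of 5. In that fit 10.2% of all genes were higher and 8.56% lower at an unadjusted p under 0.05.

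In all, 5 of the 10 genes passed the filter of a mean of at least 1 TPM. Limma called 4 of them higher and 1 lower at an adjusted p under 0.05, where 9.75% of the 12201 tested genes were called higher and 3.48% lower. Of the 10 genes, 6 had penfluridol values all above and 1 all below the DMSO values, and 3 overlapped. Among the 5 tested genes, 4 were above and 1 was below, where the shares over all tested genes were 23.3% above and 13.6% below. Those shares leave out genes under the filter, such as CXCL2 and CSF1, which are among the 6. TNF, CXCL8 and LIF had a DMSO mean below 1 TPM and so passed the filter through the penfluridol libraries, and nothing is read from the counts, since the names were chosen from this contrast. Just inside the filter were TNF, with a mean over all libraries of 1.29 TPM, and LIF, with 1.84 TPM, and just outside was CXCL1, with 0.527 TPM.

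**Figure D3:**
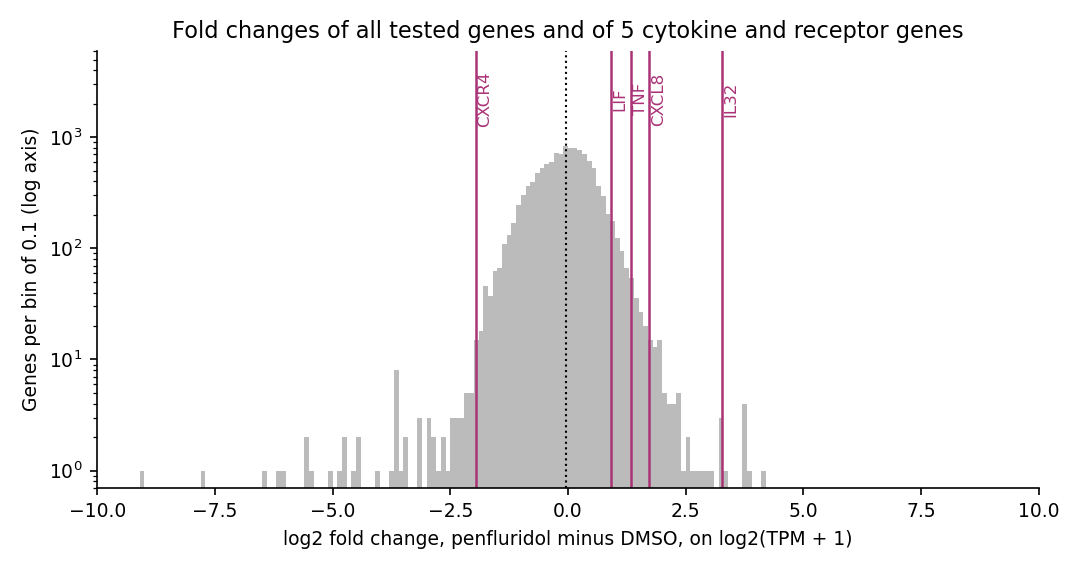
Log2 fold changes (penfluridol minus DMSO, on log2(TPM + 1)) of the 12201 tested genes in bins of 0.1 (grey, log axis), with their median of −0.04 (dotted) and the 5 tested genes of the set (lines). IL32 at 3.26 lies near the upper end of the range, LIF at 0.91 lies where the distribution is still dense, and CXCR4 at −1.96 lies in the lower tail.

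**Figure D4:**
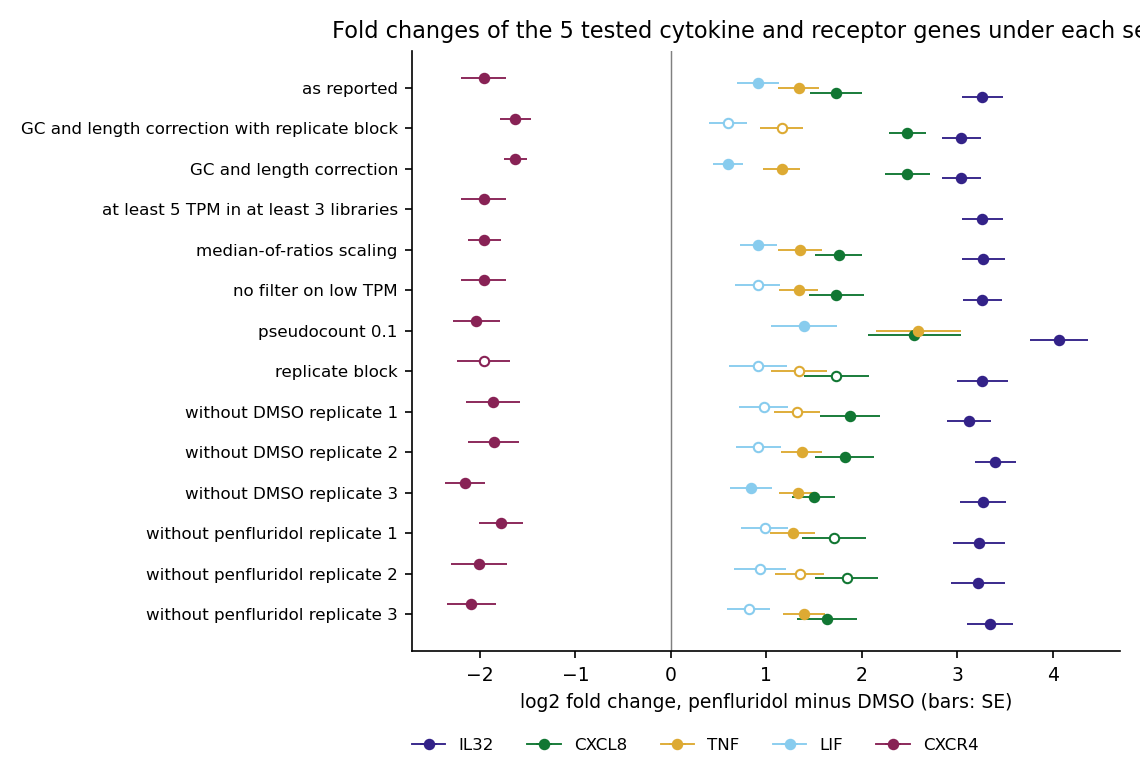
Log2 fold change of the 5 tested genes with its SE under each setting of the analysis; filled points have a limma adjusted p under 0.05 and open points do not. No gene changed sign, IL32 was called under every setting shown, and LIF ran from 0.60 with GC and length correction to 1.39 with a pseudocount of 0.1.

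The receptors of these ligands were largely low. TNFRSF1A, the widely expressed TNF receptor, was at 67.0, 59.0 and 74.6 TPM in DMSO and 95.5, 95.3 and 116.3 TPM in penfluridol, without overlap. Its log2 fold change was 0.61 ± 0.14 (SE; limma adjusted p = 0.0323). That call was kept without DMSO 3 (0.0172) and lost without any other library (0.0805 to 0.120), with median-of-ratios scaling (0.0667) and with no filter on low values (0.0672). IL6R had a fold change of −0.02 (limma adjusted p = 0.953) at means of 1.61 TPM in DMSO and 1.59 TPM in penfluridol. Of the 11 receptors listed, 2 were tested and 9 had a mean below 1 TPM. CXCR1 and CXCR2, the receptors of CXCL8, and ACKR1 were listed at 0 in all 6 libraries, LIFR reached at most 0.42 TPM, and IL6ST, the shared signalling chain of LIF and IL6, ran from 0.16 to 1.56 TPM.

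Among 16 other chemokines, 4 were tested and 1 was called higher. CXCL3 was at 1.04, 0.80 and 0.60 TPM in DMSO and 2.25, 1.95 and 2.99 TPM in penfluridol (log2 fold change 0.90 ± 0.24, SE; limma adjusted p = 0.0487), and the read sharing with CXCL1 and CXCL2 applies here too. Its call was kept without DMSO 3 (0.0405), lost without any other library (0.0954 to 0.122), with no filter on low values (0.124) and with a pseudocount of 0.1 (0.0509). Like TNF, CXCL8 and LIF, it had a DMSO mean below 1 TPM (0.813) and passed the filter through the penfluridol libraries. CXCL12, the ligand of CXCR4, was listed at 0 in all 6 libraries, and ACKR3, its other receptor, reached at most 0.42 TPM. MIF, which can also bind CXCR4, had means of 3618 TPM in DMSO and 3444 TPM in penfluridol (limma adjusted p = 0.784).

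CXCL8, CXCL1, CXCL2 and CXCL3 lie in 1 cluster of CXC chemokine genes on chromosome 4. CXCL5, CXCL6 and PPBP of the same cluster were listed at 0 in all 6 libraries. PF4 and PF4V1 reached at most 0.38 and 0.34 TPM.

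Of 20 other cytokines, 5 were tested and 2 were called higher. TNFSF9, the ligand of the costimulatory receptor CD137, was at 6.55, 4.81 and 6.14 TPM in DMSO and 15.8, 17.7 and 21.8 TPM in penfluridol (log2 fold change 1.51 ± 0.19, SE; limma adjusted p = 0.00514). IL23A, a subunit of interleukin 23, rose by a log2 fold change of 1.10 (limma adjusted p = 0.0166), from a mean of 1.75 to 4.90 TPM. The IL23A call was lost without DMSO 1 (0.0907), penfluridol 1 (0.0693) or penfluridol 2 (0.103). CTF1, another cytokine of the interleukin 6 family, had a fold change of 0.79 (adjusted p = 0.0674) and passed without DMSO 3 (0.0322).

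The NF-κB subunits and their feedback inhibitors were the list with the most calls, with 6 of 9 tested genes higher (14 listed) and 0 lower. Over all tested genes, 9.75% were called higher and 3.48% lower. The list's median log2 fold change was 0.78, against −0.04 over all tested genes. RELB, the partner of p52 in the non-canonical pathway, was at 7.34, 6.66 and 9.06 TPM in DMSO and 37.1, 32.8 and 26.3 TPM in penfluridol. All penfluridol values were above all DMSO values, and the log2 fold change was 1.93 ± 0.19 (SE; limma adjusted p = 0.00220). NFKB2, which encodes p52 and its precursor, changed by 1.63, and NFKBIA, the IκBα inhibitor, by 0.89 (limma adjusted p = 0.00114 and 0.00535). RELA, NFKBIB and TNIP1 made up the rest of the 6. Without penfluridol 2 the count fell to 2 of 9, NFKB2 and RELB, with NFKBIA at an adjusted p of 0.0542, NFKBIB at 0.0575, TNIP1 at 0.0823 and RELA at 0.119. RELA kept its call without DMSO 3 and lost it without any other library, with median-of-ratios scaling (0.0509) and with no filter on low values (0.0610), and TNIP1 also lost it without DMSO 1 (0.0666) and penfluridol 1 (0.0524). With the replicate number as a block in limma, the count was 1 of 9, NFKB2 (adjusted p = 0.0445). RELB was then at 0.0514 and NFKBIA at 0.0876. With GC and length correction the count was again 6, with RELA lost (0.0702) and a gene outside the first 6 called. The list's median was then 0.51. In the fit with all libraries, NFKBIE had a fold change of 0.55 (adjusted p = 0.0773). Several of these genes, and JUNB below, were already known from earlier results of these data to be higher.

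Among 11 tested genes of cytokine mRNA decay and shedding (12 listed), 1 was called higher and 0 lower, with a median log2 fold change of −0.01 that ran from −0.20 to 0.20 when a library was left out. That gene was ZFP36, the decay factor named above, at 4.40, 4.05 and 2.80 TPM in DMSO and 15.1, 14.2 and 20.3 TPM in penfluridol (log2 fold change 1.88 ± 0.22, SE; limma adjusted p = 0.00412). The groups did not overlap, and the call held in 6 of 6 fits that left out a library. HNRNPD, another AU-rich element binding protein, had a fold change of −0.24 (adjusted p = 0.448).

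In the list of JAK and STAT3 signalling, 2 of 9 tested genes (12 listed) were called higher and 0 lower, with a median of 0.41, or 0.17 with GC and length correction. JUNB, an AP-1 subunit that responds to STAT3, changed by 1.50 (limma adjusted p = 0.00151). PIM1, a kinase induced by STAT3, changed by 1.04 (adjusted p = 0.0228), a call lost without DMSO 1 (0.104), penfluridol 1 (0.0529), penfluridol 2 (0.114) or penfluridol 3 (0.0647). The PIM1 call was also lost with no filter on low values (0.0503). TYK2, a JAK family kinase, had a fold change of 0.38 (limma adjusted p = 0.132), or 0.08 with GC and length correction.

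Across the 6 lists, 40 of 85 genes were tested, 13 were called higher (32.5%) and 0 lower, and their median log2 fold change was 0.45. Over all tested genes, 9.75% were called higher and 3.48% lower, and the median was −0.04. The counts of each list above are to be read against these shares. At an unadjusted p under 0.05 limma gave 22 of the 40 higher and 0 lower, where 18.9% of all tested genes were higher and 14.2% lower. Without DMSO 3 a pair of genes, CCL28 and PTPN11, was called lower. With GC and length correction 13 genes were called higher and the median was 0.26.

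**Figure D5:**
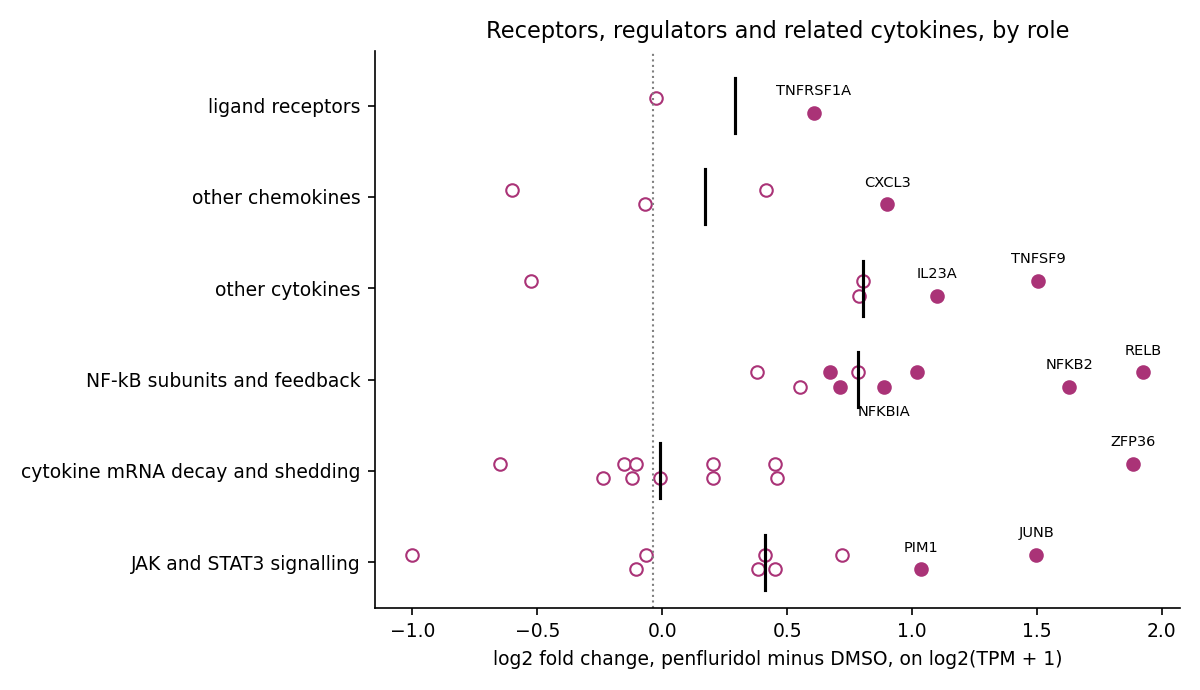
Log2 fold changes of the tested genes of 6 lists (penfluridol minus DMSO, on log2(TPM + 1)); filled points are called by limma at an adjusted p under 0.05, black bars are list medians and the dotted line is the median of all tested genes. The NF-κB list has 6 of 9 points filled and a median of 0.78, and ZFP36 at 1.88 stands alone among the decay genes.

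The genes whose profiles over the 6 libraries were most like those of the set were sought among 7180 genes averaging 5 TPM or more, by Euclidean distance between centred log2(TPM + 1) profiles. For IL32 they were UPP1, a uridine phosphorylase (distance 0.767), ATF3, a stress-responsive transcription factor (0.854), and INHBE, an activin subunit (0.866). UPP1 went from a mean of 52.9 to 398.8 TPM. CXCL8 was closest to ZFP36 (0.330), TNF to TRIM16 (0.158) and LIF to INPP1 (0.098). The log2(TPM + 1) scale understates changes of low genes such as IL32, CXCL8, TNF and LIF, so these distances and their order are partly made by the scale. In TPM, the ratio of the penfluridol mean to the DMSO mean was 17.5 for IL32, against 7.54 for UPP1, 13.8 for ATF3 and 21.2 for INHBE. That ratio was 5.77 for CXCL8 and 4.41 for ZFP36. It was 7.71 for TNF and 2.49 for TRIM16, and 2.79 for LIF and 1.98 for INPP1. CXCR4 was closest to C1QTNF3 (0.290), which was at 12.3, 12.6 and 6.43 TPM in DMSO and 1.44, 1.80 and 2.52 TPM in penfluridol, with DMSO 3 the lowest of its group in both genes.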

How the data were processed

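RNA of Ishikawa cells treated with DMSO or 5 µM penfluridol was sequenced in 3 libraries per group, which were grouped by the treatment in their labels. The deposited values are TPM, which the authors had scaled to a near-constant total (994165 to 997207 per library), as the values show. Per the submitters' processing notes, the tools were fastp and RSEM and the build was GRCh38.p13, while versions, aligner and annotation are not given in these sources. TPM keeps no read counts, so depth is unknown. No other samples (0 columns) were in the table, and 1 line was empty.

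Genes averaging 1 TPM or more were fitted on log2(TPM + 1) with limma 3.58.1 (R 4.3.3), with treatment as the only term and trended, moderated variances. P-values are two-sided and adjusted over the 12201 genes after Benjamini and Hochberg, with calls at an adjusted p under 0.05. Tables, motif searches and plots used Python 3.11.15, pandas 2.3.3, numpy 2.4.6 and matplotlib 3.10.9. Of the gene identifiers, 58452 matched GENCODE release 29, the source of positions, GC content, length and 3′ UTRs.

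The genes, lists and rules were chosen with earlier results of these data known. From each list, up to 3 called genes with the smallest p and the uncalled gene with the highest mean TPM were named, with the nearest profiles (3 for IL32, 1 for each other tested gene). Any other gene was named after seeing its values. Alternatives were a pseudocount of 0.1, no filter, at least 5 TPM in at least 3 libraries, median-of-ratios scaling, GC and length correction (splines with 5 degrees of freedom), the replicate number as a block, both together, and leaving out each library.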

Additional observations from a re-analysis of the deposited data

How the results depend on the processing

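In 62 refits of the 5 tested genes of the set, 46 kept the call, 16 lost it and 0 changed sign. Over 42 named genes, 15 of them added after their values were seen, 536 refits kept 392 verdicts, lost 136 calls, gained 3 and turned 5 signs. The turned signs were of uncalled genes when a library was left out, with log2 fold changes of −0.182 to 0.0695 for IL6R and −0.158 to 0.0525 for MIF. Deviations from the group mean correlated at −0.008, −0.006 and −0.348 between same-numbered libraries, and at −0.334 to 0.320 between differently numbered ones. With 3 libraries per group, these values cannot decide whether replicate numbers pair the libraries, and the labels do not say. With the replicate block, 74 genes in all, 1 of the set (IL32, limma adjusted p = 0.0308) and 2 of the 40 listed genes were called. With the replicate block and GC and length correction the counts were 633, 3 and 7. Without the filter 996 genes were called against 1615. With at least 5 TPM in at least 3 libraries, 2 genes of the set were tested and both were called. Leaving out each library gave 237 to 3953 genes in all, 2 to 5 of the set and 5 to 18 of the listed genes. The count of 237 came without penfluridol 2 and that of 3953 without DMSO 3, where 1692 were higher and 2261 lower. The counts were 351 without DMSO 1, 796 without DMSO 2, 527 without penfluridol 1 and 837 without penfluridol 3. The share of calls that were higher was 73.7%, 58.0% with median-of-ratios scaling and 53.2% with GC and length correction. The neighbour count of 11 became 0 with the replicate block. The cause of these shifts was not tested. Depth is unknown, so values below 1 TPM have no counting interval.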

Other observations

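Genes within 100000 bases of the 10 genes were also counted, a choice made after the values were seen. Of 35 tested neighbours, 9 were called higher (25.7%) and 2 lower (5.7%) by limma, against 9.75% and 3.48% of all tested genes. Around IL32, 4 of 13 tested neighbours were higher. They were TNFRSF12A, the receptor for the cytokine TWEAK, with BICDL2 and the zinc finger genes ZNF213 and ZNF205. TNFRSF12A was at 124.2, 108.4 and 152.7 TPM in DMSO and 345.7, 297.0 and 252.9 TPM in penfluridol, with a log2 fold change of 1.21 (limma adjusted p = 0.00708). Around TNF, within the major histocompatibility complex, 4 of 12 tested neighbours were higher (NFKBIL1, C6orf47, MICB and GPANK1). MICB, a stress-induced ligand of the natural killer cell receptor NKG2D, was at 10.6, 8.19 and 8.75 TPM in DMSO and 16.1, 16.7 and 18.0 TPM in penfluridol (log2 fold change 0.82, limma adjusted p = 0.0193). The 2 lower neighbours were the helicase gene DDX39B and ATP6V1G2-DDX39B, a readthrough transcript that shares its sequence, so their reads may be split. The other called neighbour was CXCL3, beside CXCL2. Refits of these neighbours under the same alternatives were added after the values were seen. Without penfluridol 2, BICDL2 was the 1 neighbour still called. The other counts were 3 without DMSO 1, 5 without DMSO 2, penfluridol 1 or penfluridol 3, and 16 without DMSO 3, against 11 with all libraries. With no filter on low values 7 were called. MICB kept its call without DMSO 3 and lost it without any other library (adjusted p up to 0.108), and TNFRSF12A lost it without penfluridol 2 (0.0545).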
